A study of Danio rerio with 4 samples.

Results

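The genes described here encode the complement, blood coagulation and serpin proteins of zebrafish, together with related plasma protease inhibitors, as measured in whole embryos after knockdown of hace1. They were chosen by gene symbol in the deposited annotation. The symbols were those of the C1q chains, C1r and C1s, complement components C3 to C9, complement factors B, D, H and I, the MASP proteases, the clotting factors, the fibrinogen chains, plasminogen, protein C, kininogen, the inter-alpha-trypsin inhibitor family, ambp, the alpha-2-macroglobulin family and the serpins of clades A to G and I. The choice used names and not measured values, but it was made with earlier results of these data known. It gave 91 of 32512 annotated genes. Of the 91, 4 matched only because their symbol begins with the letters of complement C4 (C4H12orf45, C4H12orf5, C4H12orf56 and C4H12orf66), and none of these is a complement gene. Hace1 is an E3 ubiquitin ligase with a HECT domain. All embryos were wild-type Tübingen fish aged 48 hours post fertilisation, and they had been injected with the hace1-HECT morpholino or with a standard control morpholino, which are antisense oligonucleotides. The hace1 morpholino targets a splice site within the HECT-coding part of the transcript, and per the labels the knockdown was checked by RT-PCR. Each group had 6 RNA samples of about 100 embryos, pooled 3 at a time into 2 libraries, A and B. These are whole-embryo pools after a transient knockdown, so no cell type is resolved.

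Complement is a cascade of plasma proteases in which C1q or lectin-bound MASP proteases start the cleavage of C4 and C3, factor B amplifies it, and C5 to C9 assemble a membrane pore. In coagulation, factors VII and X lead to thrombin, which turns fibrinogen into fibrin, and plasmin dissolves the clot. Serpins are inhibitors that trap proteases of both cascades. Most of these proteins are made by the liver, and in the zebrafish embryo the yolk syncytial layer also makes several of them.

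Both morpholinos are shown because they define the groups, in lower case from 5′ to 3′. Each has 25 bases, of which 40.0% are G or C in the hace1 morpholino and 32.0% in the control.

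hace1-HECT morpholino: ccctcgaactgttagacagaataaa

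standard control morpholino: cctcttacctcagttacaatttata

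Estimated gene counts summed to 5192490 and 8596019 in control libraries A and B and to 9856173 and 10413981 in hace1 libraries A and B. Levels are given in CPM, which are counts scaled to a common library size. The level of hace1 itself was 18.6 and 13.5 CPM in control A and B and 13.7 and 13.5 CPM in hace1 A and B, and its log2 fold change of -0.19 ± 0.22 (SE) was not called (limma-voom adjusted p = 0.647). A gene-level count cannot show the altered splicing that this morpholino is meant to cause. Separate clutches for the pools are not stated in the labels, so p-values reflect the spread between these pools, which may be technical. Libraries were sequenced 2 to a chip, and whether a chip held 1 group cannot be told apart from the morpholino. Of all annotated genes, 19279 were listed at 0 in every library, which can come from the counting, so such members are described only as listed at 0.

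Complement terminal components, fibrinogen and a few serpins had higher values in hace1 morphants, while masp1, c5, F7 and 2 alpha-2-macroglobulin-like genes had lower values. None of these 5 lower members was called, and such a number is near the share of all tested genes given below. Of the 91 members, 37 were listed at 0, 11 fell below the filter on low counts and 43 were tested. With limma-voom, and p-values adjusted by Benjamini-Hochberg across the 10832 tested genes, 4 members rose at an adjusted p below 0.05: serping1, one of the c6 genes, serpinf2b and c1qbp. Among all tested genes 1.38% were called higher and 1.38% were called lower. No member was called lower. At an unadjusted p below 0.05, 16 members were higher and 5 lower, against 10.7% and 11.6% of all tested genes, and limma-trend on log2 CPM called 3 higher (all but c1qbp) and 0 lower. In 26 tested members both hace1 libraries exceeded both control libraries, against 26.7% of all tested genes, and in 7 both lay below, against 26.9% of all. The log2 fold change was above 0 in 31 of the 43, against 50.5% of all tested genes. Its median over the tested members was 0.32 (range -1.19 to 1.78), and over all tested genes it was 0.01. Leaving out the 4 members matched only by name left 41 tested, the same 4 calls and a median of 0.32. Without hace1 library A the median over the tested members was 0.345, against 0.007 over all tested genes. Without hace1 library B these medians were 0.3446 and 0.0045. Each of these fits leaves a single hace1 library, so only the size of the difference is given.

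**Figure D1:**
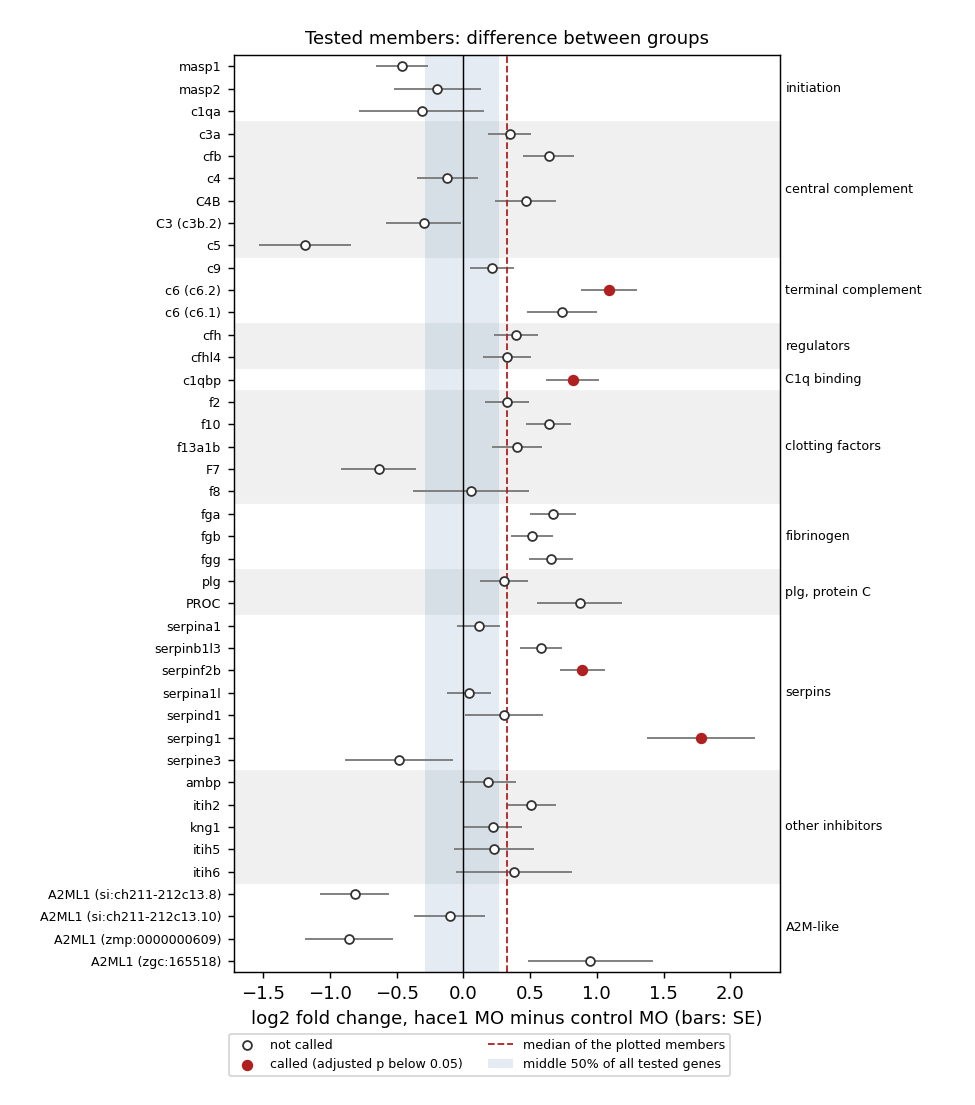
Log2 fold change of hace1 MO minus control MO (x axis) for the 41 tested members left without the name-only matches, in rows ordered by role. They include c1qbp, whose product is not a plasma complement factor. Points are limma-voom estimates with bars of 1 SE, filled where called, the dashed line is the median of the plotted members (0.32) and the shaded band holds the middle 50% of all tested genes. The 4 called members lie to the right of 0, and the points of the 3 initiation genes lie to its left.

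Among the genes that start complement, masp1 had lower values in both hace1 libraries, and none was called. Of 8 such genes, 5 were listed at 0 (c1qb, c1qc, c1r and both C1S genes) and 3 were tested. For masp1, which encodes a protease of the lectin pathway, the levels were 23.0 and 19.9 CPM in control A and B and 14.8 and 16.1 CPM in hace1 A and B. Both hace1 libraries lay below both control libraries. Its log2 fold change was -0.46 ± 0.19 (limma-voom adjusted p = 0.184). The values of masp2, the protease that cleaves C4 and C2, and of c1qa, a chain of C1q, overlapped between groups, with log2 fold changes of -0.20 and -0.31.

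The central components had values in both directions, and none was called. Of 10 genes, 3 were listed at 0 (cfd and 2 C3 genes), c3b was below the filter and 6 were tested, of which 3 had log2 fold changes above 0 and 3 below. The gene c3a encodes a form of C3, the protein on which all activation routes converge. Its levels were 82.0 and 88.7 CPM in control A and B and 108 CPM in hace1 A and 109 CPM in hace1 B, so the groups did not overlap, but the log2 fold change of 0.35 ± 0.16 was not called (limma-voom adjusted p = 0.222). Factor B (cfb), the protease of the amplification loop, was measured at 20.03 and 18.1 CPM in control A and B against 32.2 and 27.1 CPM in hace1 A and B. All hace1 values exceeded the control values, and the difference of 0.64 ± 0.19 (log2) had a limma-voom adjusted p of 0.0831. The lowest estimate of any tested member belonged to c5, whose product starts the membrane attack complex. Its 6.70 and 4.40 CPM in control A and B stood against 1.99 and 2.64 CPM in hace1 A and B. The groups did not overlap, and the log2 fold change was -1.19 ± 0.35 (limma-voom adjusted p = 0.0806). It was called lower with the replicate letter as a block (limma-voom adjusted p = 0.0222). That setting called 491 of the 10832 tested genes lower, against 150 without the block. No pairing by letter was seen in the values (r = -0.01), so the block rests on no known pairing. The log2 fold change of c5 was -1.53 without control library B and -0.91 without control library A. The paralogues of C4, an early component cleaved by both starting pathways, had log2 fold changes of opposite sign, 0.47 for C4B and -0.12 for c4, and the C3 gene now named c3b.2 had -0.30.

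Terminal components, which build the pore, all had positive log2 fold changes. Of 4 genes, C7 was listed at 0 and 3 were tested. The c6 gene ENSDARG00000057113 (now c6.2, chromosome 21, 19742763 to 19760478 in Zv9) stood at 12.6 and 9.96 CPM in control A and B and at 22.1 and 25.1 CPM in hace1 A and B. Each hace1 library was well above each control library. It rose by 1.09 ± 0.21 on the log2 scale (limma-voom adjusted p = 0.0318), which is 2.13-fold. Its neighbour c6.1 (ENSDARG00000093052) had 5.55 and 6.06 CPM in control A and B against 8.60 and 11.1 CPM in hace1 A and B. These groups did not overlap either, and the log2 fold change of 0.74 ± 0.26 was not called (limma-voom adjusted p = 0.129). The pore-forming c9 was measured at 79.0 and 78.6 CPM in control A and B and at 99.8 and 83.3 CPM in hace1 A and B. Its difference was small, 0.21 ± 0.16 on the log2 scale (limma-voom adjusted p = 0.480), with hace1 B close to the controls.

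Among the regulators, 3 factor H-like genes were listed at 0, cfhl3 was below the filter and 2 were tested. Factor H (cfh) limits the C3 convertase, and its levels were 30.0 and 33.7 CPM in control A and B and 41.5 and 42.5 CPM in hace1 A and B. The groups were separate, with a log2 fold change of 0.39 ± 0.17 that was not called (limma-voom adjusted p = 0.192). A factor H-like gene, cfhl4, had 0.33 ± 0.18 with groups that did not overlap. The receptor genes C3AR1 and C5AR1 were listed at 0. The c1qbp gene takes its name from C1q binding, but its product is known mainly as a protein of the mitochondrial matrix and is not a plasma complement factor. It stood at 117 and 81.7 CPM in control A and B and at 160 and 187 CPM in hace1 A and B. The control libraries differed from each other by about as much as control A differed from hace1 A. It rose by 0.82 ± 0.20 on the log2 scale (limma-voom adjusted p = 0.0498). This call lay at the threshold, and with limma-trend the adjusted p was 0.0527.

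All 3 fibrinogen chains had higher values in both hace1 libraries, and none passed the threshold. Fibrinogen is the soluble precursor of the fibrin clot, built from an alpha, a beta and a gamma chain. The alpha chain gene fga was measured at 113 and 125 CPM in control A and B and at 207 and 174 CPM in hace1 A and B. For the beta chain gene fgb the levels were 55.9 and 56.3 CPM in control A and B and 79.5 and 80.6 CPM in hace1 A and B. The gamma chain gene fgg stood at 41.6 and 46.7 CPM in control A and B and at 72.6 and 66.9 CPM in hace1 A and B. In no chain did the groups overlap. Log2 fold changes were 0.67 ± 0.17 for fga, 0.51 ± 0.16 for fgb and 0.66 ± 0.16 for fgg, with limma-voom adjusted p-values of 0.0535, 0.0914 and 0.0526. All 3 were below 0.05 before adjustment. Summed over the chains, the levels were 211 and 228 CPM in the control libraries and 359 and 322 CPM in the hace1 libraries.

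Of the 14 clotting factor genes, 6 were listed at 0 (among them f5, f3a and f3b, the last a pair of tissue factor genes), 3 were below the filter (f9a, f13a1a.1 and f13b) and 5 were tested. Prothrombin (f2), the precursor of thrombin, had 36.9 and 39.3 CPM in control A and B and 50.4 and 45.3 CPM in hace1 A and B. The groups did not overlap, and the log2 fold change of 0.32 ± 0.16 was not called (limma-voom adjusted p = 0.268). Factor X (f10), the protease that activates prothrombin, stood at 29.1 and 27.6 CPM in control A and B and at 44.3 and 43.9 CPM in hace1 A and B. Replicates were close in both groups, and the log2 difference of 0.64 ± 0.17 came near the threshold (limma-voom adjusted p = 0.0581). The F7 gene ENSDARG00000076045, for factor VII, which starts the tissue factor pathway, had lower values in hace1 morphants, with 5.59 and 6.35 CPM in control A and B and 3.74 and 3.98 CPM in hace1 A and B. Its log2 fold change was -0.64 ± 0.28 (limma-voom adjusted p = 0.208). A gene outside the members, f7i, which now also carries the name F7, went the other way. It had 5.57 and 4.59 CPM in control A and B and 8.63 and 6.39 CPM in hace1 A and B. The log2 fold change of f7i was 0.56 ± 0.28 (limma-voom adjusted p = 0.265). The clot-stabilising f13a1b had 0.40, and f8, the cofactor of factor IX, had 0.06 with overlapping groups.

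Plasminogen and protein C act against the clot, and neither gene was called. Plasminogen (plg), the precursor of plasmin, was measured at 27.3 and 34.96 CPM in control A and B and at 37.5 and 39.5 CPM in hace1 A and B. Its log2 fold change was 0.30 ± 0.18 (limma-voom adjusted p = 0.340). PROC, for the anticoagulant protein C, had 3.00 and 2.33 CPM in control A and B against 5.00 and 4.68 CPM in hace1 A and B. The groups were separate at this low level, with a log2 fold change of 0.87 ± 0.32 (limma-voom adjusted p = 0.141). A more abundant protein C gene outside the members, proca, overlapped between groups at 15.5 and 13.9 CPM in control A and B and 14.4 and 13.5 CPM in hace1 A and B, with a log2 fold change of -0.07 ± 0.20. Over the 20 coagulation and fibrinolysis genes together, 10 were tested and 0 were called, 6 passed an unadjusted p below 0.05 (22.4% of all tested genes did), and 9 had log2 fold changes above 0. Their median was 0.46, against 0.01 over all tested genes.

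The serpins held the largest rise among the members. Of 19 serpin genes, 10 were listed at 0, including serpinc1 (antithrombin). Another pair, serpina7 and serpinf2a, was below the filter, and 7 were tested. The gene serping1 (chromosome 8, 14477606 to 14489577 in Zv9) encodes the C1 inhibitor, which blocks C1r, C1s and the MASP proteases. It was measured at 2.08 and 1.66 CPM in control A and B and at 4.79 and 8.62 CPM in hace1 A and B, from estimated counts of 11.99, 14.2, 44.5 and 85.2. Hace1 B was the highest library and the groups did not overlap. The rise was 1.78 ± 0.41 on the log2 scale, or 3.43-fold (limma-voom adjusted p = 0.0454). The gene serpinf2b (chromosome 15, 25877320 to 25888734 in Zv9) encodes a form of alpha-2-antiplasmin, the inhibitor of plasmin. Its levels were 33.7 and 31.3 CPM in control A and B and 64.3 and 56.2 CPM in hace1 A and B. Replicates lay close together, and it rose by 0.89 ± 0.17 on the log2 scale, or 1.85-fold (limma-voom adjusted p = 0.0295).

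The other tested serpins were not called. The clade B gene serpinb1l3, related to leukocyte elastase inhibitor, had 49.6 and 50.4 CPM in control A and B and 72.4 and 77.8 CPM in hace1 A and B. The groups were clearly apart, at a log2 fold change of 0.58 ± 0.16 (limma-voom adjusted p = 0.0668). By contrast, serpina1, which encodes alpha-1-antitrypsin, stood at 67.9 and 61.3 CPM in control A and B and at 71.4 and 68.1 CPM in hace1 A and B. The library values differed little, with a log2 fold change of 0.11 ± 0.16 (limma-voom adjusted p = 0.717). Its neighbour serpina1l had 0.04 ± 0.16 with overlapping groups, and reads may be shared between the pair. Heparin cofactor II (serpind1), a thrombin inhibitor, overlapped between groups at 4.33 and 5.58 CPM in control A and B and 7.25 and 5.34 CPM in hace1 A and B, with a log2 fold change of 0.30 ± 0.29 (limma-voom adjusted p = 0.577). The poorly characterised serpine3 had 2.62 and 1.71 CPM in control A and B and 1.45 and 1.49 CPM in hace1 A and B. Its log2 fold change was -0.48 ± 0.40 (limma-voom adjusted p = 0.515).

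The remaining inhibitors are described in 2 sets. All 5 of ambp, kng1 and the inter-alpha-trypsin inhibitor heavy chains itih2, itih5 and itih6 had log2 fold changes above 0, between 0.18 and 0.51, and none was called (1 was below 0.05 before adjustment). The ambp gene, for the precursor of alpha-1-microglobulin and bikunin, was measured at 40.5 and 25.9 CPM in control A and B and at 36.5 and 36.1 CPM in hace1 A and B. Here control A was the highest library and control B the lowest, and the log2 fold change was 0.18 ± 0.21 (limma-voom adjusted p = 0.639). Of 12 alpha-2-macroglobulin-like genes, whose products cage proteases, 4 were listed at 0, 4 were below the filter and 4 were tested, with a median of -0.46 and 0 calls (2 were below 0.05 before adjustment, both lower). The A2ML1 gene ENSDARG00000078757 stood at 11.4 and 8.75 CPM in control A and B and at 5.23 and 5.94 CPM in hace1 A and B. The groups did not overlap, and the log2 fold change was -0.82 ± 0.26 (limma-voom adjusted p = 0.0987). A second one, ENSDARG00000041685, had -0.86 ± 0.33 (limma-voom adjusted p = 0.153), and the one on chromosome 3, ENSDARG00000075737, had 0.95 ± 0.47 at a level under 2 CPM.

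Per length, c1qbp was the most abundant tested member in control morphants at 86.7 CPM per kilobase, followed by serpina1 at 39.2, fga at 38.0, serpinb1l3 at 34.2 and c9 at 33.6 CPM per kilobase. In hace1 morphants fga, at 60.6 CPM per kilobase, stood above serpina1 at 42.3, and c1qbp reached 151. The called c6 gene went from 3.36 to 7.04 CPM per kilobase and serping1 from 0.904 to 3.25. The 25 tested members with a mean of at least 10 CPM had a median log2 fold change of 0.40, with 20 of them higher in both hace1 libraries and 3 called. All 6834 tested genes at that level had a median of 0.05, and 2219 of them were higher in both hace1 libraries. Of these 6834 genes, 129 were called higher and 117 lower. The 18 members under 10 CPM had a median of -0.14, with 6 of them higher in both hace1 libraries and 1 called higher. All 3998 tested genes under 10 CPM had a median of -0.11, and 671 of them were higher in both hace1 libraries. Of these 3998 genes, 20 were called higher and 33 lower.

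**Figure D2:**
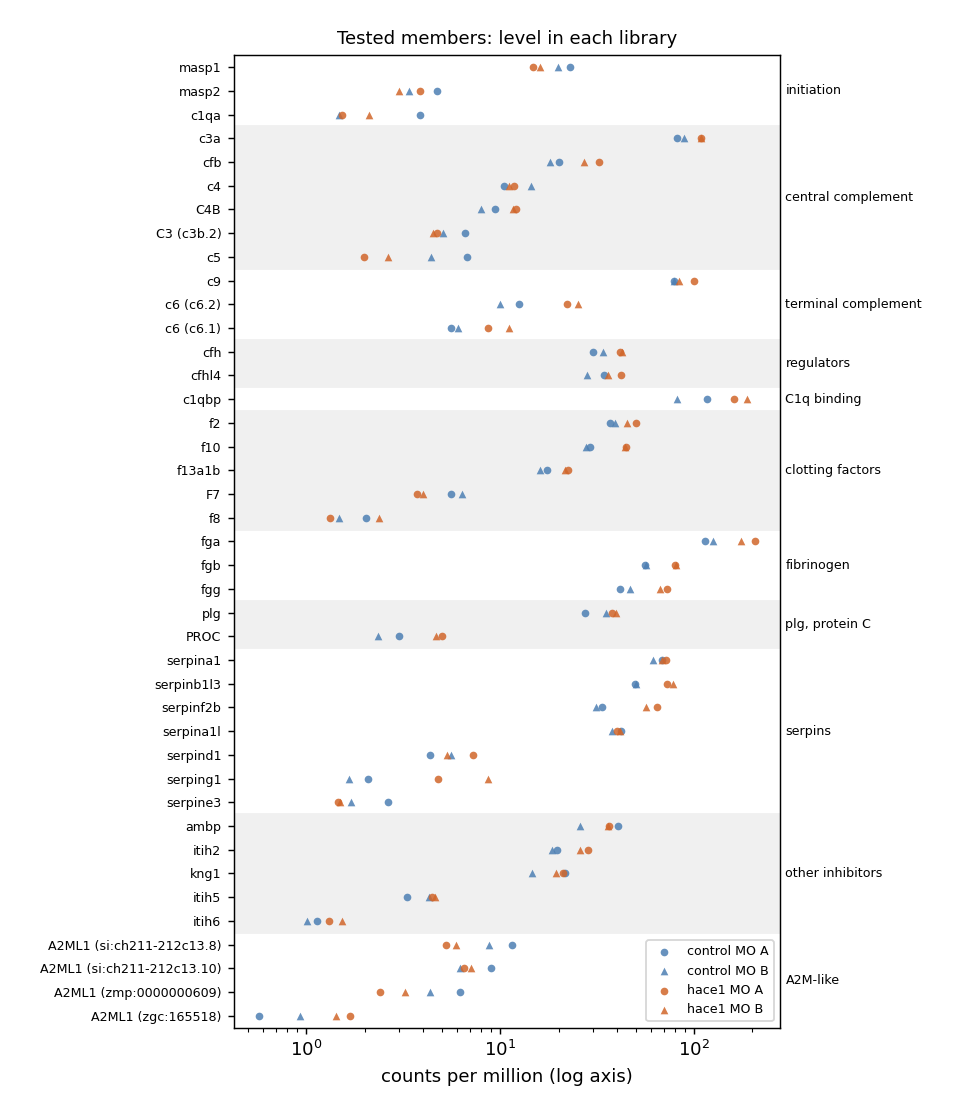
Level of each of the 41 tested members in each library, in CPM on a log axis, with rows ordered by role. Blue marks are control MO and orange marks hace1 MO, with circles for library A and triangles for library B. For the fibrinogen genes the orange marks lie to the right of the blue ones, and for c5 they lie to the left.

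Exonic regions show where along a gene a difference lies. Overlapping exons were merged into regions, counted from the 5′ end. The called c6 gene had 18 regions, of which 8 had both hace1 libraries above both control libraries and 0 had both below. Its largest region, the one before the last, held 3.29 and 2.76 CPM in control A and B and 8.02 and 7.88 CPM in hace1 A and B. For c1qbp the hace1 libraries were above in 5 of 6 regions and below in 0. In serping1 they were above in 5 of 10 and below in 0, and in serpinf2b above in 4 of 9 and below in 0. The last region of serpinf2b alone held 69.7% of its exonic counts, with 18.6 and 20.6 CPM in control A and B and 47.8 and 40.2 CPM in hace1 A and B. Over the 4 genes, 22 of 43 regions were higher in both hace1 libraries, against 17.6% of all regions of tested genes, and so were 14 of the 18 regions whose mean count reached 10, against 23.2%. These genes were picked for their higher call, so the region counts restate it. By the deposited transcript shares, serping1 counts were assigned mainly to transcript 001 in hace1 A and B (39.6 and 75.1 counts) and less so in control A and B (3.42 and 6.61 counts).

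**Figure D3:**
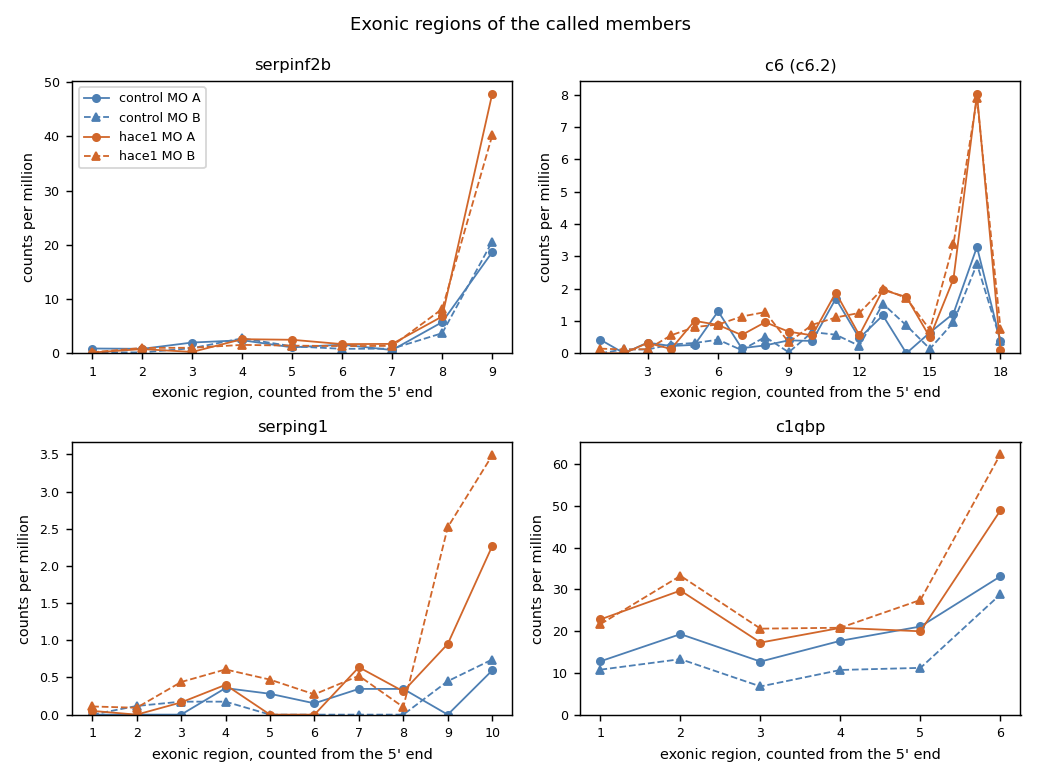
Level in CPM (y axis) of each exonic region, counted from the 5′ end (x axis), for the 4 called members, with 1 line per library. In serpinf2b the difference between blue (control MO) and orange (hace1 MO) lies mostly on the last region, while in c1qbp the orange lines lie above the blue ones in 5 of 6 regions.

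For many members the share of counts on the last exonic region, at the 3′ end, differed between libraries. Among 24 tested members with at least 2 regions and a mean count of 100 or more, the median share was 30.0% and 42.5% in control A and B and 46.5% and 42.0% in hace1 A and B. Over the 6361 tested genes that met the same limits it was 39.4% and 45.8% in control A and B and 46.6% and 45.9% in hace1 A and B, so control A stood apart. The share was higher in both hace1 libraries in 11 of the 24 members (45.8%) and lower in 1 (4.17%), against 33.0% and 7.58% of all genes. For c9 it was 20.8% and 23.7% in control A and B and 35.5% and 35.3% in hace1 A and B. For fgg it was 37.5% and 59.3% in control A and B and 67.0% and 69.5% in hace1 A and B. The clade B serpin serpinb1l3 was the 1 member with a lower share, at 47.9% and 56.3% in control A and B and 41.9% and 41.6% in hace1 A and B.

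The size of many differences therefore depended on which exons were counted, in a pair of fits chosen after seeing the data. Across the 20 of these members tested both ways, the median log2 fold change was 0.23 without the last region and 0.57 on the last region alone, and the last region gave the larger value in 17 of 20. Over all 6059 genes tested both ways the medians were 0.04 and 0.05, and the last region gave the larger value in 52.9%. Without the last region 3 of the 38 members tested were called higher, against 1.05% of the 9506 genes tested. They were the c6 gene ENSDARG00000057113 (1.17 ± 0.21, limma-voom adjusted p = 0.0192), c1qbp (0.88 ± 0.21, adjusted p = 0.0485) and serpinb1l3 (0.94 ± 0.19, adjusted p = 0.0277). The last region of this c6 gene held only 2.9% and 3.91% of its exonic counts in control A and B. In hace1 A and B it held 0.5% and 3.03%, so this fit says little about 3′ coverage of c6. Its region before the last stayed in, with 26.2% and 27.7% in control A and B and 36.2% and 31.5% in hace1 A and B. The call of serpinf2b ended, at 0.43 ± 0.22 (limma-voom adjusted p = 0.285), as did that of serping1, at 1.67 ± 0.47 (limma-voom adjusted p = 0.0720). On the last region alone 2 of the 30 members tested were called higher, against 0.479% of 8763 genes. They were serpinf2b (1.03 ± 0.19, limma-voom adjusted p = 0.0336) and fgg (1.02 ± 0.21, limma-voom adjusted p = 0.0471). Without it, fgg had only 0.07 ± 0.21, fgb 0.21 ± 0.18 and c9 0.01 ± 0.19, while serpina1 had -0.32 ± 0.19 and ambp -0.16 ± 0.25. Also without the last region, c3a had 0.09 ± 0.19, f2 0.11 ± 0.20 and plg 0.04 ± 0.21. On the last region alone c3a had 0.81 ± 0.20. Of the 41 exonic regions of c3a, 8 were higher and 12 lower in both hace1 libraries. Nearly all counts of fga, 96.0%, lay on region 5 of 9, and its last region held at most 0.027% in any library. Its log2 fold change without the last region was 0.74 ± 0.20 (limma-voom adjusted p = 0.0651). That fit keeps nearly all exonic counts of fga, so it cannot show a part of 3′ coverage. The part of 3′ coverage in these results beyond these fits was not tested.

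**Figure D4:**
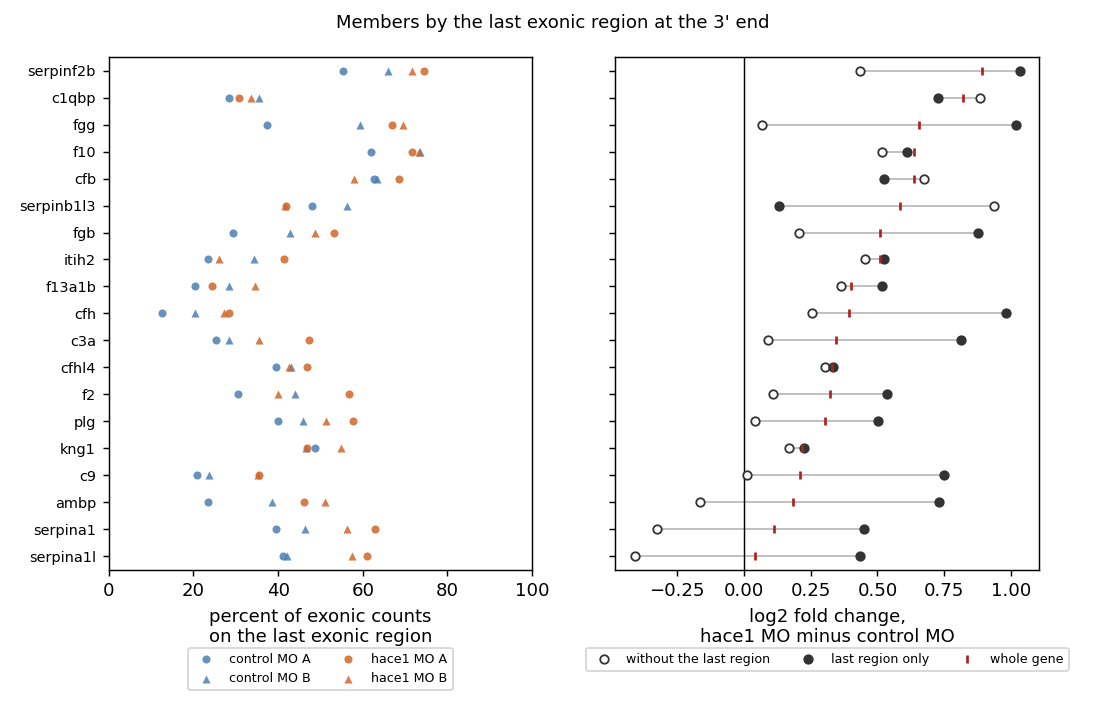
Left, percent of exonic counts on the last exonic region in each library for 19 members tested both ways, all with a mean count of 100 or more (C4H12orf66 is not drawn). Right, log2 fold change of hace1 MO minus control MO for the same genes without the last region (open), on the last region alone (filled) and for the whole gene (red mark). For fgg the open point lies at 0.07 and the filled one at 1.02, while for serpinb1l3 their order is turned.

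Several members lie next to each other in the genome. On chromosome 1 (3800 to 38471 in Zv9), F7 had a log2 fold change of -0.64 and f10 had 0.64, with f7 between them listed at 0. Farther along chromosome 1 (9127847 to 9147623), fgb and fga lie side by side, with 0.51 and 0.67. The alpha-2-macroglobulin-like genes on chromosome 15 (19953463 to 20201058) had -0.10, -0.82 and -0.86. The 2 c6 genes flank C7 on chromosome 21 (19623347 to 19760478). The annotation of C7 overlaps the 3′ end of the called c6 gene on the other strand, and no source used here gives the strand setting of the counting, so reads there cannot be assigned to 1 gene. The call of that c6 gene held without its last region, which covers the overlap. That region held at most 3.91% of its exonic counts in any library, so leaving it out could hardly change the call. The part of C7 reads in the c6 values was not tested. Reads may also be shared within the c6 pair, the factor H family and the alpha-2-macroglobulin-like family, whose sequences were not compared here.

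The rest of both pathways was read from lists of other genes. Of 24 further complement genes, 14 were listed at 0 and 10 were tested, with a median log2 fold change of 0.08. Among these, 0 were called higher (2 before adjustment) and 1 was called lower (3 before adjustment). The lower one was csmd2, a complement-regulator-like gene known from the brain, with 31.8 and 30.0 CPM in control A and B and 13.7 and 12.5 CPM in hace1 A and B (log2 fold change -1.23 ± 0.19, limma-voom adjusted p = 0.00951). Of 40 further coagulation and fibrinolysis genes, 18 were tested, with a median of 0.21. Here 1 was called higher (3 before adjustment) and 0 were called lower (0 before adjustment). The higher one was the transglutaminase gene tgm2a, with 39.0 and 45.1 CPM in control A and B and 73.6 and 75.9 CPM in hace1 A and B (0.83 ± 0.16, limma-voom adjusted p = 0.0356).

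Markers of cell types were read beside the members, but they do not show which cells express the members. In whole embryos, fewer cells of a type and less RNA per cell cannot be told apart. Of 12 hepatocyte marker genes, 7 were tested and 0 called (1 higher and 2 lower before adjustment). Their summed level was 501 and 562 CPM in control A and B and 513 and 506 CPM in hace1 A and B, with a median log2 fold change of -0.36. Log2 fold changes were above 0 in 3 of the 7 and below 0 in 4. The liver marker fabp10a stood at 2.05 and 2.04 CPM in control A and B and at 1.46 and 1.75 CPM in hace1 A and B. Its log2 fold change was -0.36 ± 0.39 (limma-voom adjusted p = 0.624). Another marker, cp, had 53.0 and 47.15 CPM in control A and B and 62.25 and 85.3 CPM in hace1 A and B. For cp the log2 fold change was 0.55 ± 0.19 (limma-voom adjusted p = 0.1205). The more abundant marker tfa went the other way. It had 200.1 and 199.0 CPM in control A and B and 147.5 and 143.5 CPM in hace1 A and B. The log2 fold change of tfa was -0.46 ± 0.16 (limma-voom adjusted p = 0.129). For rbp4, also abundant, the groups overlapped, with a log2 fold change of 0.07 ± 0.19. Of 38 liver and yolk secreted protein genes, 19 were tested and 0 called (5 higher and 2 lower before adjustment), with a median of 0.03. Beside it, the median of the complement, coagulation and serpin genes was 0.32, a difference that was not tested. Macrophage markers summed to 61.7 and 56.9 CPM in control A and B and to 48.4 and 47.6 CPM in hace1 A and B, with 11 of 25 tested and 0 called (2 lower before adjustment). Neutrophil markers summed to 49.2 and 63.4 CPM in control A and B and to 79.3 and 153 CPM in hace1 A and B, with 4 of 9 tested and 0 called (3 higher before adjustment). Hace1 B was highest in this sum and also for serping1. In hace1 A and B, mmp9 had 18.5 and 64.5 CPM and mmp13a had 3.81 and 42.5 CPM, while mpx had 24.7 and 25.1 CPM and npsn 32.3 and 20.9 CPM. Of 9 thrombocyte markers 5 were tested and 0 called (1 higher before adjustment), with itga2b listed at 0, and of 14 endothelium markers 7 were tested and 0 called (1 lower before adjustment), with kdrl listed at 0. With limma-trend, 0 genes of these marker and secreted protein lists were called. The part of these cell types in the members' results was not tested.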

How the data were processed

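RNA from whole embryos was sequenced on an Ion Proton instrument. The build was Zv9 and the tools were DESeq, Bowtie2 2.0.2, TopHat2 2.0.6 and cutadapt 1.2.1, per the submitters' processing notes. No source used here names the counting program or its strand setting. Estimated counts were deposited by the authors, 94.3% of them not whole among genes above 0, as were log2 values centred per gene on the median of the libraries. Because the estimated counts are stored as pairs inside an annotation file, limma-voom (limma 3.58.1, R 4.3.3) was used. Genes were tested if 2 or more libraries reached the CPM that 10 counts give in a library of median size, and if counts summed to 15. Libraries were scaled by the trimmed mean of M values, and the group was the only term, with 2 residual degrees of freedom. Calls used a Benjamini-Hochberg adjusted p below 0.05 over all tested genes. The fit was tested on simulated data. Errors are SE. Samples were grouped by the injected morpholino. Members and lists were chosen with earlier results of these data known. Named in full are called members, uncalled ones at least 2-fold different, the most abundant of each role, and cfb, f10, fgb, fgg and an A2ML1 gene, chosen after their values were seen for an adjusted p below 0.1. Also chosen after their values were seen were F7, PROC, c6.1, cfhl4, serpina1l and 2 further A2ML1 genes, as genes of like name, neighbours or contrasts. Current names matched 74 of the 91 identifiers. Other settings were another scaling, filter, test and value type, gene length, the replicate block, leaving out each library, and exonic counts with and without the last region.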

Additional observations from a re-analysis of the deposited data

How the results depend on the processing

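The median over the members stayed positive under every setting, from 0.13 (without the last exonic region) to 0.57 (last region only). The 299 genes called became 186 with exonic length classes centred, 174 without the last exonic region and 73 on the last region alone, and leaving out a library gave 8 to 2572. The 4 calls among members became 2 on the last region alone, and 0 to 15 when a library was left out. No pairing by the letters A and B was seen in the values. The deviations of library A from its group mean did not correlate between groups (r = -0.01 over 6390 genes). With the replicate block, 914 genes, 9 members and 12 genes of the other lists were called. Calls in the other lists became 2 on the last region alone, and 0 to 26 when a library was left out. The share of exonic regions of called members with both hace1 libraries above was 51.2%, and 77.8% for regions whose mean count reached 10. The sign of ambp turned without control MO library B (-0.17, against 0.49 without control MO library A) and without the last region (-0.16), and that of serpina1 turned without the last region (-0.32). For serpina1l it turned with length classes centred (-0.023), without control MO library B (-0.042, against 0.12 without control MO library A) and without the last region (-0.41); the cause was not tested. Over the other settings the log2 fold change ran from 0.90 to 1.25 for c6 (ENSDARG00000057113, 12 settings). It ran from 0.43 to 1.03 for serpinf2b, 1.35 to 2.19 for serping1 and 0.56 to 1.09 for c1qbp (13 settings each). With all 4 libraries, the c6 call held wherever the gene was tested. The serpinf2b call was lost without the last region, and the serping1 call in both region fits. That of c1qbp was lost with another scaling, no filter, limma-trend, the deposited log2 values, length classes centred and on the last region alone. Depth limits the low members most: serping1 rests on 11.99 and 14.2 counts in control A and B.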

Other observations

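Serpins outside the members included clade H, whose product is a chaperone of collagen in the endoplasmic reticulum rather than a protease inhibitor. Of 3 clade H genes, 2 were tested and 1 was called higher. The gene serpinh1b had 99.4 and 135 CPM in control A and B and 315 and 298 CPM in hace1 A and B, a log2 fold change of 1.40 ± 0.19 (limma-voom adjusted p = 0.00485).

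Several members are acute-phase genes in mammals. Of 26 genes of acute-phase signalling, 10 were tested and 1 was called higher, against 1.38% of all tested genes, with a median of 0.13. Before adjustment 1 was higher and 0 were lower, while 22.4% of all tested genes passed. The called gene was socs3b, a feedback inhibitor of cytokine signalling, with 45.8 and 36.2 CPM in control A and B and 84.4 and 99.0 CPM in hace1 A and B (1.17 ± 0.18, limma-voom adjusted p = 0.0102). In the same list saa was listed at 0, and crp, crp2 and crp3 were below the filter. Of 22 genes of hepatocyte transcription factors, 9 were tested and 0 were called (2 higher and 1 lower before adjustment), with a median of -0.04. Among neutrophil markers mmp9 stood at 64.5 CPM in hace1 B against 18.5 CPM in hace1 A and 10.9 and 13.9 CPM in the control libraries. The marker mmp13a, given above, was also higher in hace1 B than in hace1 A, while mpx and npsn did not show such a rise.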
